A study of Mus musculus with 27 samples.

Results

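The 10 imprinted growth genes were followed in hematopoietic stem and progenitor cells (HSPCs) of the mouse from mid-gestation to young adulthood. The genes were H19, Igf2, Dlk1, Meg3, Grb10, Ndn, Mest, Peg3, Peg10 and Plagl1. They were found by symbol as 10 of the 24418 rows of a bulk RNA-seq table. All 27 libraries came from C57BL/6 HSPCs that the labels call highly purified, with 3 libraries in each of 9 groups. Embryonic groups were E16.5 FL, E12.5 FL and E12.5 PL, where FL usually stands for fetal liver. The other groups came from BM, usually bone marrow, and were called Perinatal, with no age given, and 1w, 3w, 4w, 6w and 8w by age in weeks. The labels do not spell out PL. No treatment or mutation is named. No source used here gives the sort markers or the number of animals per library, so the p-values measure the spread between these libraries, which may be technical.

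Imprinted genes are expressed mainly from the copy inherited from 1 parent, because DNA methylation laid down in the germ line of either parent marks the copies differently. Many of them control fetal growth and lie in clusters. In the clusters of H19 and Igf2 and of Dlk1 and Meg3, a paternally expressed coding gene and a maternally expressed non-coding RNA share control elements. In blood stem cells, several of these genes are known from work on quiescence and on signalling through insulin-like growth factors (IGFs). Gene-level RNA values, as measured here, do not separate the parental copies.

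Levels are given as FPKM, fragment counts scaled to transcript length and to library size, as the authors computed them. Differences are in log2(FPKM + 1), with the standard error (SE) of a limma model fitted to all 27 libraries and an adjusted p (Benjamini-Hochberg over the 13350 genes that reached 1 FPKM in 3 or more libraries). A gene was called at an adjusted p under 0.05. The added 1 shrinks the differences of genes near or below 1 FPKM. All 10 genes passed the filter, but Mest did so only through E12.5 PL, with 2 other libraries at or above 1 FPKM.

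The HSPC label was checked against 12 markers, among them Kit, Cd34, Myb and Ptprc. All 12 had a mean of at least 1 FPKM in every group. Their summed level was 519 to 547 FPKM in E12.5 PL libraries and 1286 to 1630 FPKM elsewhere. In E12.5 PL the mean sum of 530 FPKM was below that of trophoblast markers (3485 FPKM), stromal markers (9323 FPKM) and endothelial markers (852 FPKM). Of the 12 markers, 10 were called higher in E12.5 FL than in E12.5 PL and 2 lower, against 33.2% and 41% of all genes. Among the 10, Myb was at 17.6 FPKM in E12.5 PL and 144 FPKM in E12.5 FL, and Flt3 at 7.02 and 86.0 FPKM. E12.5 PL is therefore named by its label only. The FPKM totals of the libraries ranged from 519810 to 763033. Relative depth, estimated from the lowest values in each library, was 0.69 to 1.6 times the median library. Its group mean was highest in E12.5 FL (1.51), then 1.26 in E12.5 PL and 0.81 to 1.06 in the other groups. Libraries of 1 group correlated at 0.979 to 0.995, and no library repeated another.

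In E12.5 PL the 10 genes together held 1.17% of all FPKM. This share was 0.0384% in E12.5 FL, 0.0305% in E16.5 FL, 0.0106% in Perinatal BM and 0.00254% in 8w BM. Igf2, H19 and Dlk1 fell to 3.72%, 16.1% and 40.6% of their E12.5 FL level by Perinatal BM, with H19 at 7.72% when Perinatal BM library 3 was left out. At 8w BM, Grb10, Meg3, Mest, Peg10 and Ndn were at 51.2%, 45%, 36.1%, 25.7% and 16.2% of their E12.5 FL level. Meg3 had been at 18.3% at 3w, and the Mest mean was only 0.681 FPKM in E12.5 FL.

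**Figure D1:**
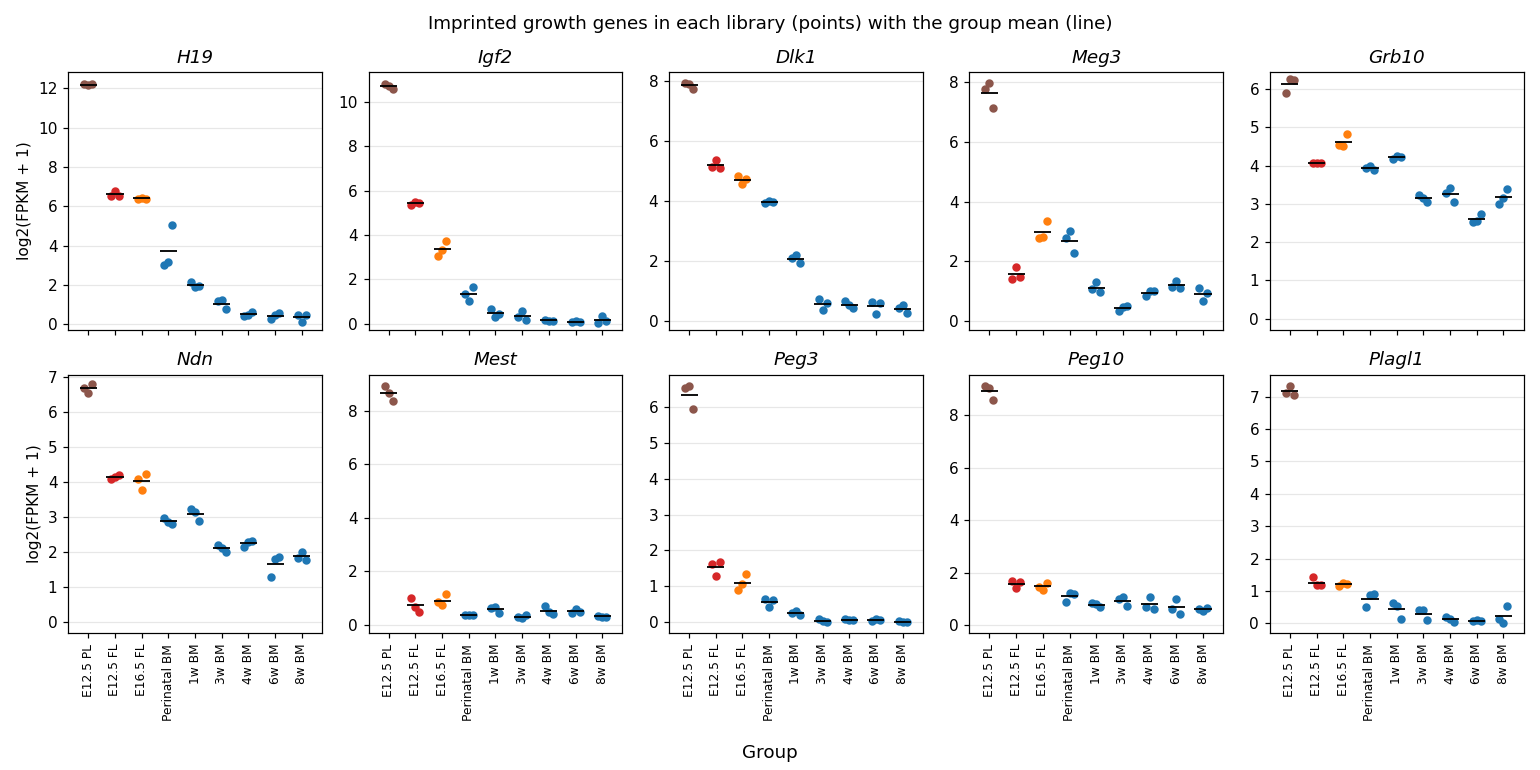
Level of each gene in log2(FPKM + 1) on the vertical axis (scale differs between panels) against group on the horizontal axis, with 1 point per library, 3 per group, and a line at the group mean. All 10 genes are highest in E12.5 PL, H19 has 1 high library in Perinatal BM, and Meg3 is higher in E16.5 FL than in E12.5 FL.

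E12.5 FL was compared with E12.5 PL to set the liver libraries beside those labelled with the other E12.5 source. All 10 genes were lower in E12.5 FL, and in none did the libraries of the groups overlap. Background rates were high: of all genes tested, 74.2% were called in either direction, 33.2% were called higher, 41% were called lower and 76.3% did not overlap. The median difference was -5.43 for the 10 genes and -0.06 for all genes tested, with the reservation that Mest had passed the filter through E12.5 PL alone. The differences ranged from -2.06 ± 0.11 (SE, adjusted p = 6.43e-14) for Grb10 to -7.92 ± 0.14 (adjusted p = 1.84e-23) for Mest.

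H19 read 4828, 4582 and 4714 FPKM in E12.5 PL, and was the third most abundant of the 24418 rows there by group mean. In E12.5 FL it read 90.04, 111 and 91.5 FPKM. Igf2 read 1801, 1664 and 1521 FPKM in E12.5 PL and 39.7, 43.2 and 42.6 FPKM in E12.5 FL. Each PL library therefore lay above each FL library for both genes. Mest and Peg10 had the largest log2 differences of the 10. Mest, Peg10 and Plagl1 were at 407 ± 76.5, 487 ± 89.7 and 143 ± 14.6 FPKM (SD, n = 3) in E12.5 PL and 0.681 ± 0.311, 1.99 ± 0.272 and 1.40 ± 0.241 FPKM in E12.5 FL. Dlk1 read 239, 237 and 212 FPKM and Meg3 217, 247 and 140 FPKM in E12.5 PL, so that the PL libraries of these cluster partners overlapped. Ndn (103 ± 8.72 FPKM), Peg3 (81.6 ± 18.7 FPKM) and Grb10 (69.5 ± 9.22 FPKM) were the lowest of the 10 in E12.5 PL (SD, n = 3).

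Markers of other cell types moved with this comparison. The summed level of 12 trophoblast markers was 3217 to 3955 FPKM in E12.5 PL and 13.8 to 15.3 FPKM in E12.5 FL. Of these 12, 10 had a mean of at least 1 FPKM in PL and 1 in FL. The 8 stromal markers summed to 5248 to 12364 FPKM in PL and 12.6 to 15.8 FPKM in FL, with 8 and 3 of them at a mean of at least 1 FPKM. The 8 endothelial markers summed to 760 to 993 FPKM against 101 to 109 FPKM, with 8 and 7 at that mean. Markers of yolk sac and parietal endoderm (8 genes) summed to 539 to 1228 FPKM against 4.27 to 4.57 FPKM, with 7 and 1 at that mean. No count of calls is given for these lists, because many of their genes passed the filter only through PL. Defining trophoblast genes were at or near 0 in E12.5 FL, with Hand1 listed at 0 in all 3 libraries. The part of these cell types in the FL and PL values was not tested. In bulk RNA, fewer cells of a type and less RNA per cell cannot be told apart.

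The H19 and Igf2 cluster lies on chromosome 7 (GRCm38). H19 is a long non-coding RNA at chr7:142575529-142578143 and Igf2, a fetal growth factor, is at chr7:142650766-142666816, both on the minus strand and 72.6 kb apart. The maternally expressed H19 and the paternally expressed Igf2 share enhancers across a methylation-sensitive control region. In GENCODE vM21, 62.8% of Igf2 exon bases also belong to the gene model Gm49394 on the same strand, and 1.71% to the antisense gene Igf2os. The kit's strand setting is not stated, so reads shared with Igf2os cannot be told apart. No strand setting could separate those shared with Gm49394, and how such reads were counted is not stated either.

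Within FL and BM, H19 was not called different between E12.5 and E16.5 and was lower in every BM group. E16.5 FL libraries read 82.9, 86.3 and 83.0 FPKM, a difference from E12.5 FL of -0.20 ± 0.30 (95% interval -0.83 to 0.42, adjusted p = 0.659), with all E16.5 values below all E12.5 values. That SE pools the spread of all groups, Perinatal BM included, and with only the 6 libraries compared the adjusted p was 0.110. Perinatal BM libraries read 7.16, 7.90 and 32.1 FPKM. The third lay far above the other two, and all 3 were below every FL library.

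The fall of H19 from E16.5 FL to Perinatal BM was 2.67 on the log2 scale (-2.67 ± 0.30, adjusted p = 1.06e-06). Without the third Perinatal BM library it was -3.32 (adjusted p = 2.95e-13). The 1w libraries read 3.53, 2.67 and 2.87 FPKM (-1.74 ± 0.30 from Perinatal BM, adjusted p = 0.000394, or -1.09 without that library, adjusted p = 1.63e-05). The 3w libraries read 1.28, 1.34 and 0.695 FPKM. The 3w step was called (-0.94 ± 0.30, adjusted p = 0.048), and the call was lost when any single library of the 6 was left out. From 4w to 8w all 9 libraries read 0.0796 to 0.535 FPKM, with overlapping groups.

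Igf2 fell earlier than H19. E16.5 FL libraries read 7.18, 9.0 and 12.1 FPKM, all below the E12.5 FL libraries (-2.07 ± 0.15, adjusted p = 2.55e-09). Perinatal BM libraries read 1.55, 1.02 and 2.10 FPKM, again without overlap (-2.02 ± 0.15, adjusted p = 2.38e-09). The 1w libraries read 0.564, 0.236 and 0.354 FPKM (-0.87 ± 0.15, adjusted p = 0.000502). From 1w on, neighbouring groups in the order of levels overlapped, and no later step was called.

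The ratio of H19 to Igf2 FPKM described how the pair came apart. It was 2.15 to 2.56 in the 3 E12.5 FL libraries and 6.86 to 11.5 in the 3 E16.5 FL libraries, so the ranges did not overlap. The log2(FPKM + 1) difference between the genes rose by 1.86 from E12.5 to E16.5. An exact two-sided permutation test gave p = 0.1, the smallest that 3 against 3 libraries allow. In Perinatal BM the ratio spread from 4.63 to 15.3 and overlapped that of E16.5 FL. The log2(FPKM + 1) difference, on which the test was run, changed by -0.64 in this step (exact permutation p = 0.4).

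Downstream of Igf2, the adaptor Grb10 binds the insulin and IGF receptors and dampens their signal. It lies at chr11:11930508-12038683 on the minus strand. Grb10 was above 4 FPKM in every library. E12.5 FL read 15.6, 15.9 and 15.9 FPKM and E16.5 FL read 22.2, 21.8 and 27.5 FPKM, a rise without overlap (0.56 ± 0.11, adjusted p = 0.000598). Perinatal BM read 14.4, 14.9 and 13.8 FPKM (-0.69 ± 0.11, adjusted p = 8.75e-05), below every FL library.

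Grb10 at 1w read 17.0, 18.0 and 17.7 FPKM, above Perinatal BM in every library but not called (0.28 ± 0.11, adjusted p = 0.0929). At 3w it read 8.38, 7.92 and 7.22 FPKM (-1.07 ± 0.11, adjusted p = 1.44e-06). The lowest levels were at 6w: 4w read 8.75, 9.71 and 7.33 FPKM, 6w read 4.80, 4.89 and 5.68 FPKM, and 8w read 6.91, 7.95 and 9.40 FPKM. The 6w libraries lay below all of the others. The fall to 6w (-0.64 ± 0.11, adjusted p = 0.00155) and the rise to 8w (0.56 ± 0.11, adjusted p = 0.00216) were both called, but neither when only the 6 libraries compared were fitted (adjusted p = 0.149 and 0.106).

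Marker lists differed around 6w too. The 6 macrophage markers summed to 35.4 to 41.5 FPKM at 6w and 73.6 to 119 FPKM at 8w, and 6 of 6 rose in that step, where 2.97% of all genes were called higher. Krt18, an epithelial keratin on the trophoblast list, read 34.4, 106 and 40.2 FPKM at 6w, above 16.7 to 19.3 FPKM at 4w and 16.7 to 26.4 FPKM at 8w. It made up most of the trophoblast sum at 6w, 61.4 FPKM as a mean, where 10 of the 12 trophoblast markers were at 0 in all 3 libraries. The part of these cells in the Grb10 and Ndn values at 6w and 8w was not tested.

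The Dlk1 and Meg3 cluster lies on chromosome 12. Dlk1, a paternally expressed transmembrane protein of the Notch ligand type, is at chr12:109452823-109463336, and Meg3, a maternally expressed long non-coding RNA, at chr12:109541001-109571726, both on the plus strand and 77.7 kb apart. Because this pair moved in opposite directions in FL, the 250 bases before the annotated RefSeq starts are shown (GRCm38.p6, plus strand, CG dinucleotides in capitals). The windows are chr12:109452573-109452822 for Dlk1 and chr12:109540746-109540995 for the first of the Meg3 starts.
Dlk1: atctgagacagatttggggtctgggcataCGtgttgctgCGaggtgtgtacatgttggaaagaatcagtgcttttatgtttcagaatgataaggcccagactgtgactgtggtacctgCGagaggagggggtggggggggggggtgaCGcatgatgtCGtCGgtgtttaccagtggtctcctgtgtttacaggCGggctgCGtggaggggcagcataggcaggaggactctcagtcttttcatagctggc
Meg3: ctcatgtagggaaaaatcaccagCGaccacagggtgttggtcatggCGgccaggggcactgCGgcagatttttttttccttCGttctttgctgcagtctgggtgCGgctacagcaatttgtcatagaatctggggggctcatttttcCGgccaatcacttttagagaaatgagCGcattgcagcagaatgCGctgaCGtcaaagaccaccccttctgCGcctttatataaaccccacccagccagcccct
The Dlk1 window holds 8 CG dinucleotides and the Meg3 window 10, against a median of 6 over 32851 such windows. The motif TATAAA, searched on both strands, occurs in the Meg3 window as 2 overlapping matches, 1 on each strand, and is in 12.4% of all windows. CCAAT, also searched on both strands, occurs there once and in 33.8% of all windows. Neither run of letters is in the Dlk1 window. RefSeq gives a second Meg3 start downstream, whose window at chr12:109545148-109545397 holds 0 CG dinucleotides and neither run of letters.

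Dlk1 fell at each step up to 3w. E12.5 FL libraries read 34.2, 39.9 and 33.4 FPKM and E16.5 FL libraries 27.1, 22.5 and 25.6 FPKM (-0.50 ± 0.12, adjusted p = 0.00244, and 0.127 with a pseudocount of 0.1). Perinatal BM libraries read 14.14, 14.98 and 14.47 FPKM (-0.75 ± 0.12, adjusted p = 6.56e-05). The 3 Perinatal BM libraries were close together and below all FL libraries.

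Dlk1 at 1w read 3.28, 3.62 and 2.83 FPKM (-1.88 ± 0.12, adjusted p = 2.34e-10). At 3w it read 0.683, 0.292 and 0.537 FPKM (-1.5 ± 0.12, adjusted p = 4.82e-08). Neither step had overlapping libraries. From 3w to 8w, all libraries lay between 0.196 and 0.683 FPKM and the groups overlapped.

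Meg3 rose where Dlk1 fell. E12.5 FL libraries read 1.68, 2.48 and 1.80 FPKM and E16.5 FL libraries 5.92, 6.02 and 9.24 FPKM, without overlap (1.42 ± 0.20, adjusted p = 1.15e-05). Perinatal BM libraries read 5.92, 7.08 and 3.84 FPKM and overlapped those of E16.5 FL (-0.29 ± 0.20, 95% interval -0.70 to 0.12, adjusted p = 0.29). At 1w Meg3 read 1.12, 1.47 and 0.967 FPKM (-1.57 ± 0.20, adjusted p = 8.68e-06), below every Perinatal BM library. It was lowest at 3w with 0.266, 0.402 and 0.424 FPKM (-0.68 ± 0.20, adjusted p = 0.0302), a call lost without 3w library 1, 2 or 3 or 1w library 1 or 2 (adjusted p = 0.0616 to 0.116).

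Meg3 libraries at 4w, 0.818, 0.998 and 1.02 FPKM, lay above all 3w libraries. The step was not called (0.51 ± 0.20, adjusted p = 0.105) but passed with a pseudocount of 0.1 (adjusted p = 0.00956). Levels at 6w and 8w were 1.31 ± 0.195 and 0.896 ± 0.288 FPKM (SD, n = 3). Rian, the non-coding RNA 32.2 kb downstream of Meg3, also rose from 3.02 to 6.52 FPKM between E12.5 FL and E16.5 FL (0.91, adjusted p = 0.00037). Rian fell to 1.79 FPKM in Perinatal BM (-1.43, adjusted p = 2.56e-06), where Meg3 was not called.

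The ratio of Dlk1 to Meg3 FPKM was 16.1 to 20.3 in E12.5 FL and 2.77 to 4.58 in E16.5 FL. The log2(FPKM + 1) difference between the genes fell by 1.91, with an exact two-sided permutation p of 0.1, again the smallest possible. The ratio was 2.12 to 3.77 in Perinatal BM, overlapping E16.5 FL, and 0.230 to 0.763 in 8w BM. Into Perinatal BM the log2(FPKM + 1) difference changed by -0.45 (exact permutation p = 0.2). All 9 libraries from 4w on had more Meg3 than Dlk1 FPKM, with ratios of 0.127 to 0.763.

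**Figure D2:**
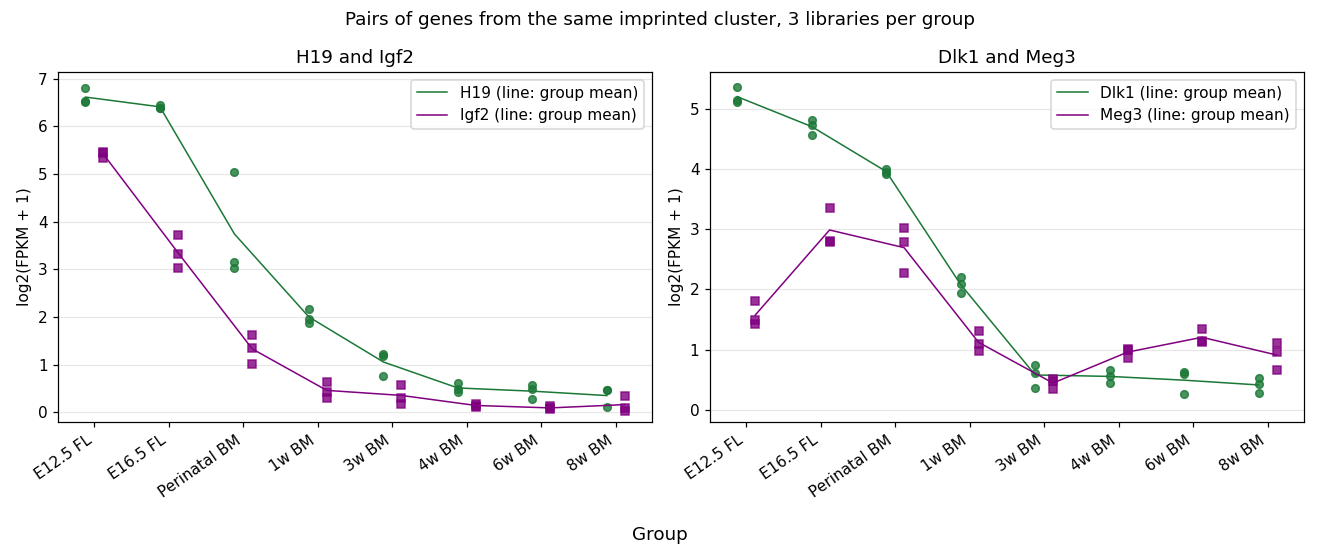
Levels in log2(FPKM + 1) against group, from E12.5 FL to 8w BM, with 1 point per library and a line through the group means, for H19 and Igf2 (left) and Dlk1 and Meg3 (right). Igf2 falls between E12.5 FL and E16.5 FL while H19 differs by -0.20, and the Dlk1 and Meg3 lines converge, cross and stay below 2 FPKM from 3w on.

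Ndn encodes necdin, a MAGE family protein linked to quiescence of blood stem cells. It is a single-exon gene at chr7:62346569-62350262 on the plus strand. E12.5 FL libraries read 16.0, 16.7 and 17.4 FPKM and overlapped E16.5 FL libraries at 16.0, 12.8 and 18.1 FPKM (-0.10 ± 0.13, adjusted p = 0.613). Perinatal BM libraries read 6.87, 6.35 and 5.96 FPKM, all below FL (-1.16 ± 0.13, adjusted p = 1.26e-06). At 1w Ndn read 8.45, 7.94 and 6.43 FPKM, overlapping Perinatal BM, and at 3w 3.67, 3.40 and 3.05 FPKM, below every 1w library (-0.97 ± 0.13, adjusted p = 4.95e-05).

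Like Grb10, Ndn was lowest at 6w, with 1.47, 2.48 and 2.67 FPKM against 3.48, 3.96 and 4.03 FPKM at 4w (-0.61 ± 0.13, adjusted p = 0.0101). That call was lost without 6w library 1 (adjusted p = 0.0653) or 4w library 3 (0.0504), and with only the 6 libraries compared (0.226). At 8w, 2.59, 3.07 and 2.47 FPKM overlapped 6w. Magel2, the neighbour of Ndn at 26.7 kb, was at 33.1 FPKM in E12.5 PL and at or below 0.0242 FPKM as a mean in every FL and BM group.

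The other 4 genes were low in all FL and BM groups. Peg3, a zinc finger protein gene (chr7:6703892-6730431, minus strand), read 2.10, 1.46 and 2.17 FPKM in E12.5 FL and 0.877, 1.08 and 1.53 FPKM in E16.5 FL. These ranges overlapped, and the call (-0.43 ± 0.13, adjusted p = 0.0158) was lost without E16.5 FL library 1, E12.5 FL library 1 or E12.5 FL library 3 (adjusted p = 0.065 to 0.093). Perinatal BM read 0.574, 0.333 and 0.535 FPKM, below E16.5 FL (-0.54 ± 0.13, adjusted p = 0.0043). At 8w Peg3 was listed at 0 in 2 of 3 libraries and at 0.0133 FPKM in the other.

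Plagl1, a zinc finger transcription factor known to act on other imprinted genes (chr10:13060504-13131694, plus strand), was at 1.40 ± 0.241 FPKM in E12.5 FL and 1.3 ± 0.0816 FPKM in E16.5 FL (SD, n = 3). Perinatal BM read 0.427, 0.824 and 0.868 FPKM, below E16.5 FL (-0.44 ± 0.14, adjusted p = 0.0252). That call was lost with a pseudocount of 0.1 (adjusted p = 0.21) and without Perinatal BM library 1 or E16.5 FL library 2 or 3 (adjusted p = 0.0591 to 0.153).

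Peg10, derived from a retrotransposon and required for placental development (chr6:4747306-4760517, plus strand), read 2.20, 1.68 and 2.08 FPKM in E12.5 FL and 0.530, 0.445 and 0.562 FPKM in 8w BM. No step between successive groups was called for Peg10 after E12.5 FL against E12.5 PL, but 8w BM was below E16.5 FL (-0.87 ± 0.16, adjusted p = 0.000111). Sgce starts 99 bases from Peg10 on the opposite strand and took another course. Sgce was at 4.12 FPKM in E12.5 FL, 6.57 FPKM in E16.5 FL (0.57, adjusted p = 0.000534) and 4.73 FPKM in 8w BM.

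Mest, an alpha/beta-hydrolase fold protein gene (chr6:30723547-30748465, plus strand), lay between 0.189 and 1.21 FPKM in all FL and BM libraries. Perinatal BM read 0.307, 0.286 and 0.277 FPKM, below E16.5 FL at 0.795, 0.657 and 1.21 FPKM (-0.54 ± 0.14, adjusted p = 0.0046). Copg2 on the opposite strand shares 23.1% of Mest exon bases and was at 22.7 FPKM in Perinatal BM. Reads in the shared exons cannot be told apart.

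Counted over the 10 genes, 2 rose (Meg3 and Grb10) and 3 fell (Igf2, Dlk1 and Peg3) from E12.5 FL to E16.5 FL, where 34.6% of all genes were called, 19% higher and 15.6% lower. Libraries of these groups did not overlap for 5 of the 10, and for 52.9% of all genes. From E16.5 FL to Perinatal BM 8 fell and 0 rose, against 28.4% of all genes called, 14.2% in each direction. Meg3 (-0.29 ± 0.20, adjusted p = 0.29) and Peg10 (-0.37 ± 0.16, adjusted p = 0.0841) were not called. In all, 9 of the 10 did not overlap between these groups, and 38% of all genes did not. The median difference of the 10 genes was -0.61 in this step, and that of all genes 0. Age and source, liver or marrow, change together here and cannot be told apart.

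Within BM, 4 of 10 fell from Perinatal BM to 1w (H19, Igf2, Dlk1 and Meg3), with 17.6% of all genes called, 8.6% higher and 8.97% lower. With only the 6 libraries compared, H19 and Igf2 missed the threshold in this step (adjusted p = 0.122 and 0.0503). With a pseudocount of 0.1, Peg3 was called as well (adjusted p = 0.0109). Libraries did not overlap for 8 of the 10 and for 32.7% of all genes. From 1w to 3w 5 fell (H19, Dlk1, Meg3, Grb10 and Ndn), with 10.4% called, 5.69% higher and 4.76% lower, and 7 did not overlap, against 34.7% of all genes. With a pseudocount of 0.1, Peg3 (adjusted p = 0.00194) and Mest (0.0466) were also called in this step, and Peg3 was so with only the 6 libraries compared (0.0281). From 3w to 4w limma called 0 of the 10, with 1 at an unadjusted p under 0.05 (Meg3), and 9.28% of all genes (4.72% higher and 4.56% lower). Here 3 did not overlap, against 29.9%. From 4w to 6w 2 fell (Grb10 and Ndn), with 3.94% called, 2.59% higher and 1.35% lower, and 3 did not overlap, against 20.6%. From 6w to 8w 1 rose (Grb10), with 8.18% called, 2.97% higher and 5.21% lower, and 4 did not overlap, against 26.4%.

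Over the longer intervals, 9 of 10 were lower in 8w BM than in Perinatal BM, against 37.8% of all genes called, 19.2% higher and 18.6% lower. Mest was the exception (-0.05 ± 0.14, adjusted p = 0.822). Again 9 did not overlap, against 45.9% of all genes. Peg10 lost its call without Perinatal BM library 2 (adjusted p = 0.0577), and Plagl1, whose libraries overlapped, lost it with only the 6 libraries compared (adjusted p = 0.07). All 10 were lower in 8w BM than in E16.5 FL, against 40.2% called, 20.5% higher and 19.7% lower. All 10 also did not overlap, against 52.3%. The differences ran from -0.59 ± 0.14 (adjusted p = 0.00136) for Mest to -6.06 ± 0.30 (adjusted p = 4.76e-13) for H19. These comparisons share libraries, so their counts are not independent. The median difference of the 10 genes was -1.76 for 8w BM against E16.5 FL, and that of all genes 0.

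**Figure D3:**
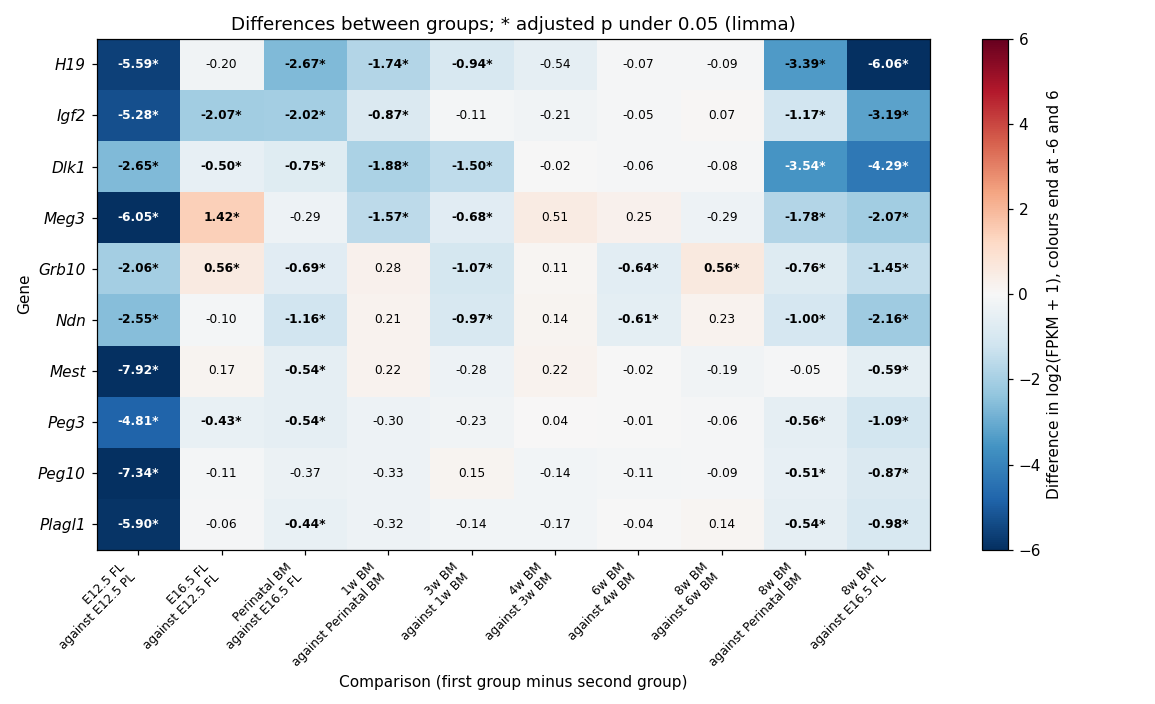
Difference in log2(FPKM + 1) of each gene (rows) in each of 10 comparisons (columns, the group named at the top of a label minus the other), with an asterisk for an adjusted p under 0.05 in limma. The E12.5 FL against E12.5 PL column is negative and called for all 10 genes, Meg3 and Grb10 are positive in E16.5 FL against E12.5 FL, and the 3 steps from 3w to 8w hold 3 calls.

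The order of the decline differed between genes. Igf2 was the only one whose group mean was under 50% of E12.5 FL at E16.5 FL, at 22.5%. H19, Dlk1, Ndn, Mest and Peg3 first passed that mark in Perinatal BM, Peg10 and Plagl1 at 1w and Meg3 and Grb10 at 3w. Not all stayed under it. Mest was at 74.5% at 1w, 66.1% at 4w and 62.7% at 6w, with a mean of 0.681 FPKM in E12.5 FL. Meg3 was at 65.9% at 6w, and Grb10 at 54.4% at 4w and 51.2% at 8w. Means under 10% of E12.5 FL were reached by Igf2 in Perinatal BM, by H19 and Dlk1 at 1w, by Peg3 at 3w and by Plagl1 at 4w. Plagl1 was back at 12.7% at 8w. Meg3, Grb10, Ndn, Mest and Peg10 stayed above 10% in every group. Meg3 and Grb10 exceeded their E12.5 FL mean in E16.5 FL, at 355% and 151%.

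Several of these marks rest on 1 library, as an alternative chosen after seeing the data showed. H19 in Perinatal BM was at 16.1% with all libraries and at 7.72% without Perinatal BM library 3, which puts it under 10% in that group. Grb10 at 3w was at 49.6%, and at 51.6% without 3w library 3. Plagl1 in Perinatal BM was at 50.5%, and at 44.7% to 48.3% without Perinatal BM library 2 or 3 or E12.5 FL library 2 or 3. Mest in Perinatal BM was at 42.6%, and at 56.9% without E12.5 FL library 1. Peg3 at 1w was at 10.4%, and at 8.99% without 1w library 2 or 9.26% without E12.5 FL library 2. Among later groups, Meg3 at 4w and 8w, Grb10 at 8w and Peg10 at 3w also crossed 50% without 1 library. At 8w, Grb10 was at 47% without library 3 and Meg3 at 52.7% without library 2. Plagl1 at 8w went from 12.7% to 3.18% without library 3, and Igf2 at 3w and 8w from 0.693% to 0.443% and from 0.301% to 0.121%, each without library 2. Peg3 at 3w went from 1.29% to 0.424% and at 8w from 0.233% to 0, each without library 1.

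**Figure D4:**
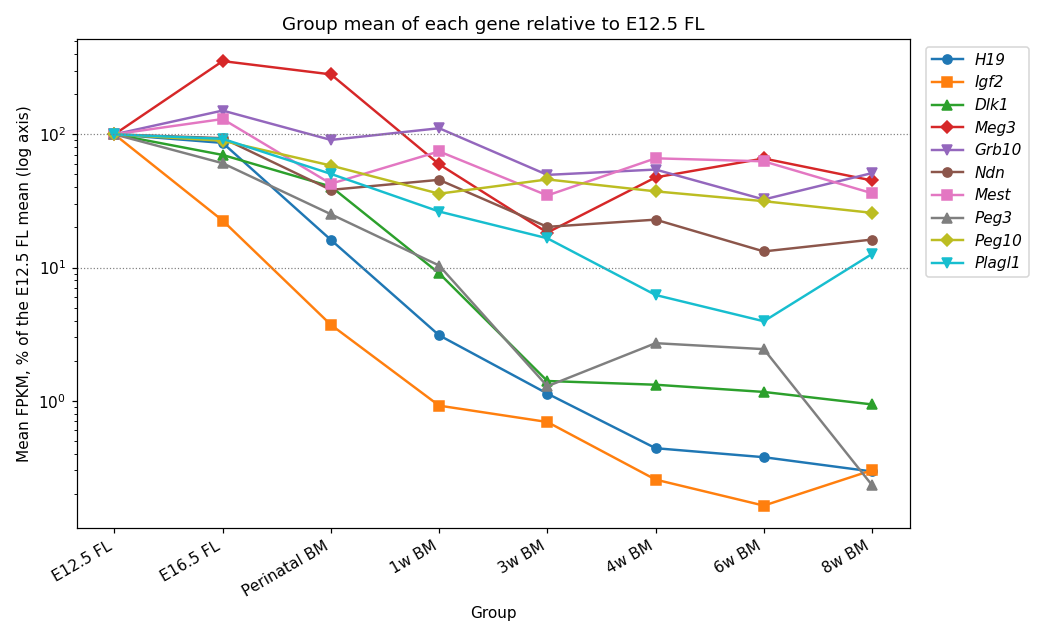
Group mean FPKM of each gene as a percent of its E12.5 FL mean, on a log axis, against group from E12.5 FL to 8w BM, with 1 line per gene. Igf2 falls first, H19 and Dlk1 follow, Meg3 rises to 355% at E16.5 FL, and Grb10 ends at 51.2%.

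Hepatoblast markers were also followed, because FL is the source of the earlier groups. Alb read 2.86, 6.92 and 2.75 FPKM in E12.5 FL, 4.13, 2.93 and 3.68 FPKM in E16.5 FL and 0 in all 3 Perinatal BM libraries. Afp was at 6.46 ± 2.51 FPKM in E12.5 FL, 2.87 ± 0.779 FPKM in E16.5 FL and 0.775 ± 0.297 FPKM in Perinatal BM (SD, n = 3). Summed over 9 hepatoblast markers, libraries ranged from 12.9 to 25.6 FPKM in E12.5 FL, 18.9 to 21.5 FPKM in E16.5 FL and 14.5 to 15.7 FPKM in Perinatal BM, where Hnf4a made up 13.4 FPKM. Of the 7 tested, 0 rose and 3 fell (Alb, Afp and Ahsg) into Perinatal BM, against 14.2% of all genes in each direction. From E12.5 FL to E16.5 FL 2 rose and 1 fell, against 19% and 15.6% of all genes. Of these 7, 2 had passed the filter only through E12.5 PL. E12.5 FL library 2 had the highest Alb, Afp, H19, Igf2, Dlk1 and Meg3 of its group. The same library had the lowest Peg3, Peg10 and Plagl1, and its Grb10, Ndn and Mest lay between the other libraries. The part of these cells in the H19, Igf2 and Dlk1 values was not tested.

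Mast cell markers moved in the same step. The 6 tested summed to 3094, 1418 and 3869 FPKM in Perinatal BM and to between 11.4 and 143 FPKM in all other libraries. H19 read 7.16, 7.90 and 32.1 FPKM in the same Perinatal BM libraries. Endothelial, macrophage and erythroid sums were lower in Perinatal BM than in E16.5 FL, where 14.2% of all genes were called lower. The 8 endothelial markers summed to 110 to 129 FPKM in E16.5 FL and 89.9 to 96.9 FPKM in Perinatal BM, and 5 of 8 fell. Macrophage markers (6) summed to 34.7 to 40.8 FPKM and 22.4 to 25.6 FPKM, and 4 of 6 fell. Erythroid markers (6) summed to 10.9 to 55.3 FPKM and 0.476 to 4.22 FPKM, and 2 of 4 tested fell. Sums of the remaining lists but hepatoblast were higher in Perinatal BM, without overlap. Stromal markers summed to 17.8 to 21.3 FPKM and 24.3 to 31.4 FPKM, and trophoblast markers to 13.0 to 14.6 FPKM and 19.7 to 23.1 FPKM. Yolk sac and parietal endoderm markers summed to 9.95 to 13.5 FPKM and 13.7 to 13.9 FPKM, and HSPC markers to 1368 to 1458 FPKM and 1530 to 1550 FPKM. The part of all these cells in the values of the 10 genes in Perinatal BM was not tested.

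Other genes of the IGF pathway were called in both directions. Igf1r, the receptor for IGF1 and IGF2, was at 14.3 FPKM in E12.5 FL and 21.8 FPKM in E16.5 FL (0.58, adjusted p = 0.00131), and at 23.1 FPKM in 8w BM. Igf2r, an imprinted receptor that removes IGF2, was at 4.02, 10.2 and 4.98 FPKM in E12.5 FL, E16.5 FL and Perinatal BM. It rose by 1.14 (adjusted p = 6.93e-06) and then fell by 0.89 (adjusted p = 0.000156). Of 24 IGF and insulin signalling genes tested, 6 had passed the filter only through E12.5 PL. From E12.5 FL to E16.5 FL 5 rose and 2 fell, against 19% and 15.6% of all genes. Into Perinatal BM 4 rose and 4 fell, against 14.2% in each direction, and 3 were higher and 5 lower in 8w BM than in E16.5 FL, against 20.5% and 19.7%.

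The 3 IGF2 mRNA binding proteins bind transcripts such as those of Igf2 and H19. All 3 were called lower in 8w BM than in E16.5 FL, against 19.7% of all genes. Igf2bp1 went from 29.9 FPKM in E12.5 FL to 8.38 FPKM in E16.5 FL (-1.75, adjusted p = 1.93e-09) and 0.928 FPKM in Perinatal BM (-2.25, adjusted p = 2.23e-11). Igf2bp2 went from 38.8 FPKM in E16.5 FL to 19.6 FPKM in Perinatal BM (-0.95, adjusted p = 1.27e-06). Igf2bp3 was at 47.5 FPKM in Perinatal BM and 0.74 FPKM in 8w BM (-4.82, adjusted p = 2.63e-19).

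Of 47 other imprinted genes tested, 33 passed the filter without E12.5 PL. From E12.5 FL to E16.5 FL 13 rose and 7 fell, against 19% and 15.6% of all genes. Into Perinatal BM 3 rose and 6 fell, against 14.2% in each direction. In 8w BM, 5 were higher and 18 lower than in E16.5 FL, against 20.5% and 19.7%. Cdkn1c, a cell cycle inhibitor, fell from 16.1 FPKM in E16.5 FL to 6.30 FPKM in Perinatal BM (-1.26, adjusted p = 1.29e-05) and was at 1.64 FPKM in 8w BM. A further list held genes that maintain, set or remove DNA methylation or act at imprinted regions. Of 13 such genes tested, 1 rose and 4 fell into E16.5 FL. Into Perinatal BM 2 of the 13 rose and 6 fell, with the same shares of all genes called in each step. Among them the DNA methyltransferase Dnmt3b fell from 155 to 97.9 FPKM (-0.66, adjusted p = 0.000159) and then to 65.2 FPKM (-0.58, adjusted p = 0.000657).

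Across the 24 FL and BM libraries the pairwise Pearson r of log2(FPKM + 1) between the 10 genes ran from 0.49 (Meg3 and Mest) to 0.98 (Igf2 and Peg3). These points share age, so the values describe a common decline. The gene most like Igf2 by this measure was Igf2bp1 (0.995), the gene most like Dlk1 was Igf2bp2 (0.986), and the gene most like H19 was Dlk1 (0.966), with Pbx2 and Cdkn1c at 0.965. For Ndn it was Ptk2 (0.973), for Grb10 Vill (0.947) and for Meg3 Peli1 (0.887), the lowest of these top values. Candidates were 9310 genes with a group mean of at least 5 FPKM in FL or BM, and members could also be named.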

How the data were processed

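Bulk RNA-seq libraries of mouse HSPCs (27, in 9 groups taken from the titles) were analysed from FPKM that the authors deposited. Trimming and quality control (Trim Galore, FastQC), STAR 2.7, HTSeq 0.6.1p1 and GRCm38 are named per the submitters' processing notes. No source used here names the FPKM tool or annotation. FPKM adjusts for length and library total, but composition can shift it, and depth in reads is unknown. Values were transformed to log2(FPKM + 1). Genes with at least 1 FPKM in at least 3 libraries entered limma 3.58.1 (R 4.3.3, lmFit and eBayes with trend, 9 group means, 18 residual degrees of freedom), in 10 comparisons, and the procedure was tested on simulated data. Differences in log2(FPKM + 1) between the genes of a pair were compared by exact permutation in scipy 1.17.1. Libraries with the same number were treated as unpaired. Positions are from GENCODE vM21 and promoter windows from RefSeq (GRCm38.p6), which held 8 of the 10 genes, without H19 and Peg10. All 10 genes were named; other lists gave up to 4 genes per comparison by adjusted p, and Rian, Sgce, Copg2, Magel2 and other neighbours were named for their position after their values were seen. The 10 genes and the lists were chosen with earlier results of these data known. Alternatives changed the pseudocount, filter, scaling, libraries fitted and replicate block.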

Additional observations from a re-analysis of the deposited data

How the results depend on the processing

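Of 1281 alternative values of the member differences, 1227 kept their direction and side of the threshold, 33 lost a call, 5 gained one and 16 changed sign. All sign changes came from leaving out 1 library and concerned uncalled differences. Their ranges over such fits, on the log2 scale, were for E16.5 FL against E12.5 FL -0.206 to 0.0252 (Ndn) and -0.105 to 0.0211 (Plagl1), for 4w against 3w -0.13 to 0.061 (Dlk1), for 6w against 4w -0.132 to 0.0181 (H19), -0.129 to 0.0555 (Dlk1), -0.0855 to 0.0673 (Mest), -0.025 to 0.00364 (Peg3) and -0.267 to 0.0341 (Peg10), and for 8w against 6w -0.177 to 0.0297 (H19), -0.0242 to 0.133 (Igf2), -0.215 to 0.0765 (Peg10) and -0.016 to 0.248 (Plagl1). The limma fit to only the 6 libraries compared has fewer residual degrees of freedom than the main fit. It called 2145 genes in place of 3786 for Perinatal BM against E16.5 FL and 899 in place of 2345 for 1w against Perinatal BM. It called 104 in place of 1239 for 4w against 3w and 10 in place of 526 for 6w against 4w. For 8w against 6w it called 6 in place of 1092. Members called were then 2, 0 and 0 for 1w against Perinatal BM, 6w against 4w and 8w against 6w, in place of 4, 2 and 1. Without the filter 3 members in place of 5 were called for 3w against 1w, and with a pseudocount of 0.1 1 in place of 0 for 4w against 3w. Leaving out 1 library gave 1462 to 2423 genes called for 1w against Perinatal BM, 738 to 988 for 3w against 1w (1394 with all), 363 to 1644 for 4w against 3w, 237 to 588 for 6w against 4w and 478 to 1076 for 8w against 6w, with 3 to 4 members called for 3w against 1w and 1 to 2 for 6w against 4w. The cause of these moves was not tested. The replicate block was not the main fit because libraries with the same number did not deviate together (residual correlations from -0.21 to 0.23, 8 of 27 libraries closest to their own number). With the block, 99 of 100 member calls stayed and the call of H19 for 3w against 1w was lost (adjusted p = 0.052). Median-of-ratios scaling and a filter at 5 FPKM changed no member call, but neither was a strong check. The scale factors lay between 0.991 and 1.019, so this scaling hardly altered the values. All members passed the filter at 5 FPKM, Mest, Peg3, Peg10 and Plagl1 only through E12.5 PL. The depth in reads is unknown, and the added 1 shrinks differences between levels under 1 FPKM.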
